A study of Homo sapiens with 60 samples.

Results

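The comparison described here sets HepG2 cells treated with a high dose of Aucklandiae Radix extract against HepG2 cells treated with a high dose of Polygalae Radix extract. It rests on 4 of the 60 libraries of the series, 2 for each extract, chosen by treatment label and dose alone and by no measured value. Both extracts were made with 70% ethanol, and cells were collected 24 h after treatment. Aucklandiae Radix was given at 280, 56 and 11.2 µg/mL and Polygalae Radix at 250, 50 and 10 µg/mL. Per the series' design text, an extract whose 20% inhibitory concentration lay under 500 µg/mL was used at that concentration and at 5-fold and 25-fold dilutions of it. The high doses were therefore matched for an inhibitory effect and not for mass, and the comparison asks what differs between the extracts beyond the inhibition they share. Each dose has 2 libraries, numbered replicate 2 and replicate 3 in the labels, and all 12 libraries of the 2 extracts carry the same set number, 11. The vehicle group has 3 libraries with a set label of its own, so differences from vehicle cannot be told apart from differences between sets. Vehicle cells received DMSO at 0.1% per their treatment label, whereas the design text gives 2%. Nothing in the labels says whether replicates came from separate cultures, so the spread behind the p-values may be technical variation only. That spread is shared by all groups of the fit, 57 libraries in 22 groups, most of them of other extracts. The 2 Polygalae high-dose libraries differed more from each other than the 2 of Aucklandiae (chi-square per gene of 15.35 against 5.80). Standard errors and p-values may therefore be too small for the Polygalae side.

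HepG2 is an established human liver cancer line that keeps many hepatocyte functions, among them the secretion of plasma proteins. It is a single tumour line, so neither the makeup of liver tissue nor the response of normal hepatocytes is represented. Aucklandiae Radix is the dried root of Aucklandia lappa and is known for sesquiterpene lactones, and Polygalae Radix is the root of Polygala tenuifolia and is known for triterpenoid saponins and xanthones. Both are crude mixtures, and no constituent was measured here. Cells answer damaged proteins, reactive chemicals, a burdened endoplasmic reticulum and amino acid shortage with separate transcription programmes. HSF1 drives cytosolic chaperones, NRF2 drives antioxidant enzymes, ATF6 and XBP1 drive chaperones of the endoplasmic reticulum, and ATF4 drives amino acid synthesis and transport genes. Growth factor signalling acts within minutes on immediate early genes such as EGR1 and FOS, and the cell cycle genes follow whether cells divide.

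The 4 high-dose libraries held 22316622 and 22154970 counts for Aucklandiae and 24417254 and 21496262 counts for Polygalae. All 8 HepG2 markers checked were present in each of them, with summed levels of 16003 to 16489 CPM (a count relative to the scaled total of its library) for Aucklandiae and 7114 to 7645 CPM for Polygalae. Blood, stromal, endothelial and lung or gut marker lists summed to at most 687, 31.7, 6.89 and 148 CPM. Their highest markers, as means with Aucklandiae and Polygalae, were LYZ (670 and 599 CPM), ACTA2 (14.0 and 8.42), PECAM1 (5.52 and 1.75) and VIL1 (77.1 and 81.7). No counts were found for 4 of 14 blood markers (CD3E, MS4A1, HBB and PPBP) and 3 of 10 stromal ones (COL1A2, DCN and POSTN). The same held for 3 of 8 endothelial markers (KDR, TEK and EMCN) and 2 of 9 lung or gut ones (SCGB1A1 and KRT5). The mitochondrially encoded share of counts was 8.17% and 8.02% with Aucklandiae, against 17.5% and 17.7% with Polygalae and 15.8% to 19.1% in the vehicle libraries. At the low doses it was 14.0% and 12.4% with Aucklandiae and 12.9% and 12.0% with Polygalae. The dependence of counts on GC content differed between the 2 Polygalae libraries, with slopes of 0.130 log2 units per 10 percentage points of GC in replicate 2 and -0.0950 in replicate 3, against -0.121 and -0.0934 with Aucklandiae. The vehicle slopes were 0.0992, 0.233 and 0.234, whereas those of the low-dose libraries ranged from -0.00922 to 0.0200. At the medium doses the slopes of replicates 2 and 3 were 0.200 and 0.00289 with Polygalae and -0.00972 and -0.0129 with Aucklandiae. CPM are scaled for library size and composition but not for transcript length, so they compare 1 gene between libraries and not 1 gene with another.

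Most tested genes differed between the extracts at the high doses, and few did at the low doses. Of 16978 genes tested, 11890 (70.0%) differed between the high doses at an adjusted p under 0.05 (edgeR's quasi-likelihood test, Benjamini-Hochberg adjustment). Of these, 6218 (36.6% of the tested genes) were higher with Aucklandiae and 5672 (33.4%) were higher with Polygalae. A difference of at least 2-fold was called for 2751 genes (16.2%) higher with Aucklandiae and 2105 (12.4%) higher with Polygalae. The same comparison called 3804 genes (22.4%) at the medium doses and 180 genes (1.06%) at the low doses. At the medium doses the count was 2497, 2411 and 1989 without Aucklandiae replicate 2, Aucklandiae replicate 3 or Polygalae replicate 2, and at the low doses it was 62, 71 and 73 without Aucklandiae replicate 2, Aucklandiae replicate 3 or Polygalae replicate 3. The median absolute log2 fold change over all tested genes was 0.63 at the high doses, 0.18 at the medium and 0.09 at the low doses. In bulk RNA, fewer cells of a kind and less RNA per cell cannot be told apart, and levels are relative to the library as a whole.

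Shared and opposite changes with dose were counted next, since the 2 contrasts of high against low dose use no library in common. With Aucklandiae 69.6% of the tested genes were called, of which 5868 rose (34.6%) and 5945 fell (35.0%). With Polygalae 64.3% were called, of which 5409 rose (31.9%) and 5508 fell (32.4%). In both extracts 2827 genes rose (16.7%), which is 48.2% of the rises with Aucklandiae and 52.3% of those with Polygalae. In both extracts 3095 genes fell (18.2%), or 52.1% and 56.2% of the falls. Another 1183 genes (6.97%) rose with Aucklandiae and fell with Polygalae, and 1339 (7.89%) did the reverse. Of the 8444 genes called in both, 5922 (70.1%) thus moved the same way. Across genes the 2 sets of log2 changes had a Pearson correlation of 0.31 and a Spearman correlation of 0.34, a description only, since genes are not independent replicates. Of the genes that rose in both, the size of the rise was not called different for 1293, was larger with Aucklandiae for 1101 and larger with Polygalae for 433. For the genes that fell in both, the corresponding counts were 1245, 1032 and 818. A test of the difference between the 2 dose responses called 10203 genes (60.1%), 5314 (31.3%) to the Aucklandiae side and 4889 (28.8%) to the Polygalae side.

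**Figure D1:**
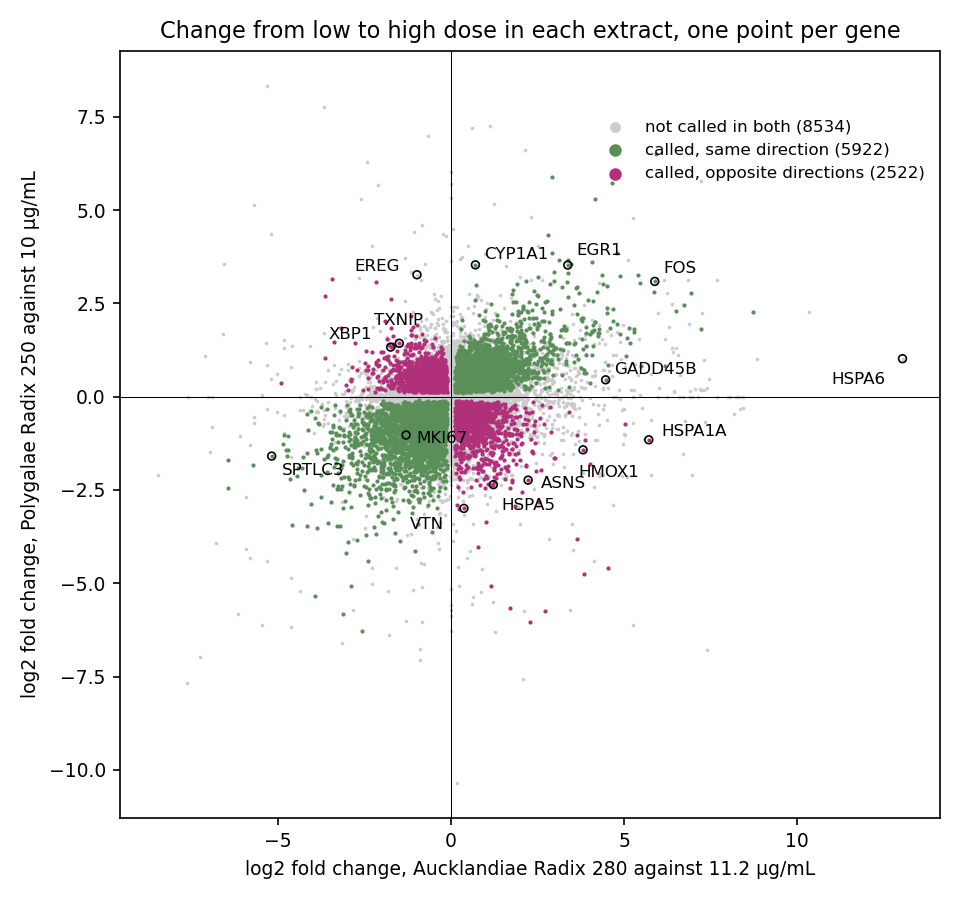
Log2 fold change from low to high dose for Aucklandiae Radix (horizontal axis) and Polygalae Radix (vertical axis), 1 point for each of the 16978 tested genes. Green points (5922) were called in the same direction in both extracts, magenta points (2522) in opposite directions, and grey points were not called in both; ringed genes are among those described, and the position of HSPA6 depends on the fit's handling of counts near 0.

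Cytosolic chaperones had the largest median difference between the extracts of the 29 gene lists examined. All 25 tested members of a list of HSF1-driven chaperones were higher with Aucklandiae than with Polygalae, with a median log2 fold change of 2.79 beside 0.03 over all tested genes. Against each list's counts at the high doses stands the share over all tested genes, 36.6% higher and 33.4% lower with Aucklandiae. For list counts with dose the shares are 34.6% rising and 35.0% falling with Aucklandiae, and 31.9% and 32.4% with Polygalae. For counts in both extracts they are 16.7% rising and 18.2% falling. From low to high dose, all 25 rose with Aucklandiae (median 1.27), while 1 rose and 17 fell with Polygalae (median -0.60). The difference of the dose responses was called for all 25. HSPA1A, the stress-inducible member of the HSP70 family, measured 4526 and 3398 CPM in the 2 Aucklandiae libraries and 36.8 and 26.7 CPM in the 2 Polygalae libraries, against 135, 146 and 142 CPM in the vehicle libraries. The high-dose groups lay on either side of the vehicle and of the low-dose means, 75.6 CPM for Aucklandiae and 71.6 CPM for Polygalae. Between the high-dose groups the log2 fold change was 6.96 ± 0.15 (adjusted p = 1.13e-36), with the SE after ± here and below. HSPA1B, a near-identical copy whose reads the counting can only divide by estimate, measured 5148 and 3658 against 77.5 and 65.3 CPM. HSPH1, a nucleotide exchange factor for HSP70, stood at 2102 and 1629 CPM with Aucklandiae and 71.6 and 75.0 CPM with Polygalae (log2 4.67 ± 0.07, adjusted p = 1.95e-41). HSPA1A, HSPA1B and HSPH1 were each lower with Polygalae at the high than at the low dose, by log2 changes of -1.16, -0.73 and -1.02. The abundant chaperone HSP90AA1 and the HSP70 co-chaperone BAG3, chosen after their values were seen, had log2 differences of 3.63 ± 0.07 and 3.44 ± 0.09 between the extracts.

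HSPA6, an HSP70 gene that is nearly silent in unstressed cells, was well counted with Aucklandiae and nearly absent with Polygalae. It had 5750 and 4293 counts in the Aucklandiae high-dose libraries and 2 and 0 in the Polygalae high-dose libraries, and it had no count in the vehicle. The ratio of the summed, scaled counts was 5366 with an exact 95% interval of 1485 to 44319, which covers counting error only. Its promoter is shown because it holds the heat shock element, the site known to bind HSF1, 74 bases before the gene's start. The 250 bases before the start, from RefSeq on GRCh38.p14, chr1:161524290-161524539, plus strand, read 5′ to 3′ with the element in capitals:
HSPA6: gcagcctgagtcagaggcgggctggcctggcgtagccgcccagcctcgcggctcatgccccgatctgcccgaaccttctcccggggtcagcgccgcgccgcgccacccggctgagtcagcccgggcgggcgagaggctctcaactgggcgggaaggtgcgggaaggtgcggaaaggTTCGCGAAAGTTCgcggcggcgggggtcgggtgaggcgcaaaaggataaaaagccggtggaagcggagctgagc
The search, on both strands, was for the units GAA, TTC and GAA in a row with 2 unspecified bases between neighbours, in windows of 300 bases from 250 before to 50 after the start. A match was found in 5 of the 23 list promoters at hand (21.7%; HSPA6, DNAJA1, SERPINH1, CHORDC1 and HSPA8) and in 0.487% of all 27305 promoters. A match is a description of the letters in that window and not a measured binding site.

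Proteasome subunits, which make up the particle that degrades ubiquitinated proteins, moved the same way as the chaperones. All 31 tested subunits were higher with Aucklandiae at the high doses (median log2 1.15). With dose, 22 rose and 1 fell with Aucklandiae (median 0.49), and 30 of 31 fell with Polygalae (median -0.82). The ATPase subunit PSMC4 measured 223 and 234 CPM with Aucklandiae and 50.1 and 49.7 CPM with Polygalae, and the regulatory subunit PSMD2 420.2 and 409 against 101 and 95.3 CPM. Their log2 differences were 2.19 ± 0.05 and 2.08 ± 0.05. The vehicle libraries lay between the extracts for both genes, with means of 112 and 224 CPM. At the medium doses 25 of the 31 subunits were already called higher with Aucklandiae, beside 11.0% of all tested genes (11.4% were lower), with a smaller median of 0.29.

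Chaperones of the endoplasmic reticulum were lower with Polygalae, and XBP1 ran against the rest of its list. Of 21 tested genes of the unfolded protein response, 20 were higher with Aucklandiae (median log2 1.38) and 1, XBP1, was higher with Polygalae. With dose, 17 of the 21 fell with Polygalae (median -0.96), whereas with Aucklandiae 10 rose and 5 fell (median 0.08). HSPA5, which encodes the major endoplasmic reticulum chaperone BiP, measured 2905 and 2447 CPM with Aucklandiae, 211 and 220.0 CPM with Polygalae and 1315, 1248 and 1271 CPM in the vehicle libraries. It was 12.4-fold higher with Aucklandiae than with Polygalae (log2 3.63 ± 0.06, adjusted p = 4.69e-41). HSP90B1, the HSP90 of the same compartment, measured 1207 and 1149 CPM with Aucklandiae and 229 and 251 CPM with Polygalae, beside a vehicle mean of 1021 CPM. DNAJB9, a co-chaperone of BiP, rose with Aucklandiae to 66.5 and 57.5 CPM and measured 10.6 and 12.7 CPM with Polygalae, beside 14.5 CPM in the vehicle.

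XBP1, a transcription factor of this response whose mRNA is also spliced outside the nucleus, showed the opposite order. It measured 92.3 and 111 CPM with Aucklandiae and 879.5 and 828 CPM with Polygalae, around 322, 329 and 339 CPM in the vehicle. Its log2 difference between the high doses was -3.07 ± 0.08 (adjusted p = 1.32e-33), from log2 changes with dose of -1.74 with Aucklandiae and 1.33 with Polygalae. Gene counts do not separate spliced from unspliced XBP1. The promoters of HSPA5 and XBP1 are printed together because both hold the same element, known to bind ATF6 with the factor NF-Y, although the 2 genes moved in opposite directions. The windows lie on the minus strand of GRCh38.p14 at chr9:125241344-125241593 and chr22:28800570-28800819, with the element in capitals, 66 and 52 bases before the start:
HSPA5: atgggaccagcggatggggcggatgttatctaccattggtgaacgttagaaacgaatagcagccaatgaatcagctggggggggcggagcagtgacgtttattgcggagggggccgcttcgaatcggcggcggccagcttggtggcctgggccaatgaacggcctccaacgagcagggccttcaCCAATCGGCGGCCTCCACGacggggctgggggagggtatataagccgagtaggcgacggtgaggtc
XBP1: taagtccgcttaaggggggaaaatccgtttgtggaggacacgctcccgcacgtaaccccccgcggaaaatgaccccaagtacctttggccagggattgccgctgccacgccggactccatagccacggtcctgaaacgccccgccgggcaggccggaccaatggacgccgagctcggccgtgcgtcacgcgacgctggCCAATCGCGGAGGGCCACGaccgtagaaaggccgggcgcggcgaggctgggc
The letters searched, CCAAT and CCACG with 9 unspecified bases between them on either strand, were found in 6 of 20 list promoters at hand (30%; CANX, HSPA5, HSP90B1, CALR, XBP1 and CRELD2) and in 0.0806% of all promoters.

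Genes of the integrated stress response, which ATF4 activates when amino acids run short, were mostly higher with Aucklandiae. Of 24 tested members (26 listed) 21 were higher and 2 lower with Aucklandiae (median log2 1.48). With dose, 17 rose and 5 fell with Aucklandiae, and 5 rose and 14 fell with Polygalae. ASNS, which makes asparagine, measured 215 and 198 CPM with Aucklandiae, 6.84 and 6.53 CPM with Polygalae and 33.0, 31.2 and 30.7 CPM in the vehicle. It rose by 2.23 on the log2 scale with Aucklandiae and changed by -2.24 with Polygalae, and the 2 responses differed by 4.46 ± 0.16 (adjusted p = 2.73e-27). DDIT4, an inhibitor of mTORC1 signalling, measured 108 and 81.5 against 11.3 and 9.67 CPM, and the cystine transporter SLC7A11 354 and 313 against 51.7 and 68.4 CPM. TRIB3, a pseudokinase induced by this response, was less far apart, at 289 and 237 against 126 and 108 CPM (log2 1.17 ± 0.10). The mitochondrial folate enzyme ALDH1L2 rose slightly with Aucklandiae (0.58) and fell with Polygalae (-2.42).

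The ASNS promoter is shown because its amino acid response element carries the core that ATF4 is known to bind together with C/EBP factors. The window of 250 bases, chr7:97872409-97872658 on the minus strand of GRCh38.p14, holds the core in capitals 68 bases before the start:
ASNS: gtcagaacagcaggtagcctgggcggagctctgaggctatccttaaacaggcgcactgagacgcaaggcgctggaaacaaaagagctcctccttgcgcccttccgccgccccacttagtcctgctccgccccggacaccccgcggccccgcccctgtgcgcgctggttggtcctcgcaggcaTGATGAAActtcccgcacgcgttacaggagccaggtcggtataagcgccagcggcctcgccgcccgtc
The core searched, TGATGNAA on both strands, occurred in 4 of 20 list promoters at hand (20%; ASNS, SLC3A2, CHAC1 and FGF21) and in 3.67% of all promoters.

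NRF2 targets, which detoxify reactive compounds and rebuild glutathione, were mostly higher with Aucklandiae at the high and medium doses. At the high doses 23 of 26 tested members (27 listed) were higher and 2 lower with Aucklandiae (median log2 1.52), beside 36.6% and 33.4% of all tested genes. With dose 16 rose and 6 fell with Aucklandiae (median 0.30), and 7 rose and 15 fell with Polygalae (median -0.50). HMOX1, which breaks down heme, measured 708 and 664 CPM with Aucklandiae, 20.2 and 17.3 CPM with Polygalae and 55.0, 58.1 and 59.0 CPM in the vehicle. The groups stood on either side of the vehicle, 36.5-fold apart (log2 5.19 ± 0.07, adjusted p = 6.92e-44). GCLM, a subunit of the enzyme that limits glutathione synthesis, rose with Aucklandiae to 315 and 301 CPM, and with Polygalae it measured 36.3 and 44.4 CPM, beside 38 CPM at the low dose (0.08 ± 0.07, adjusted p = 0.321). PIR, which encodes pirin, had log2 changes with dose of 1.27 with Aucklandiae and -1.87 with Polygalae. At the low doses 11 of the 26 were called higher with Aucklandiae, 0 lower and 15 were not called (median 0.23), beside 0.348% and 0.713% of all tested genes. Calls at the low doses were unstable over all genes, with 180 in all and 27 when only the 12 libraries of set 11 were fitted. At the medium doses 22 of 26 were higher and 0 lower (median 0.52), beside 11.0% and 11.4% of all tested genes. NQO1, a quinone reductase, measured 626 and 641 CPM at the low, 706 and 702 CPM at the medium and 419 and 437 CPM at the high dose of Aucklandiae, and 454 and 444, 379 and 396 and 144 and 159.5 CPM with Polygalae. Its level thus peaked at the medium dose of Aucklandiae, and its lowest values were at the high dose of Polygalae.

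**Figure D2:**
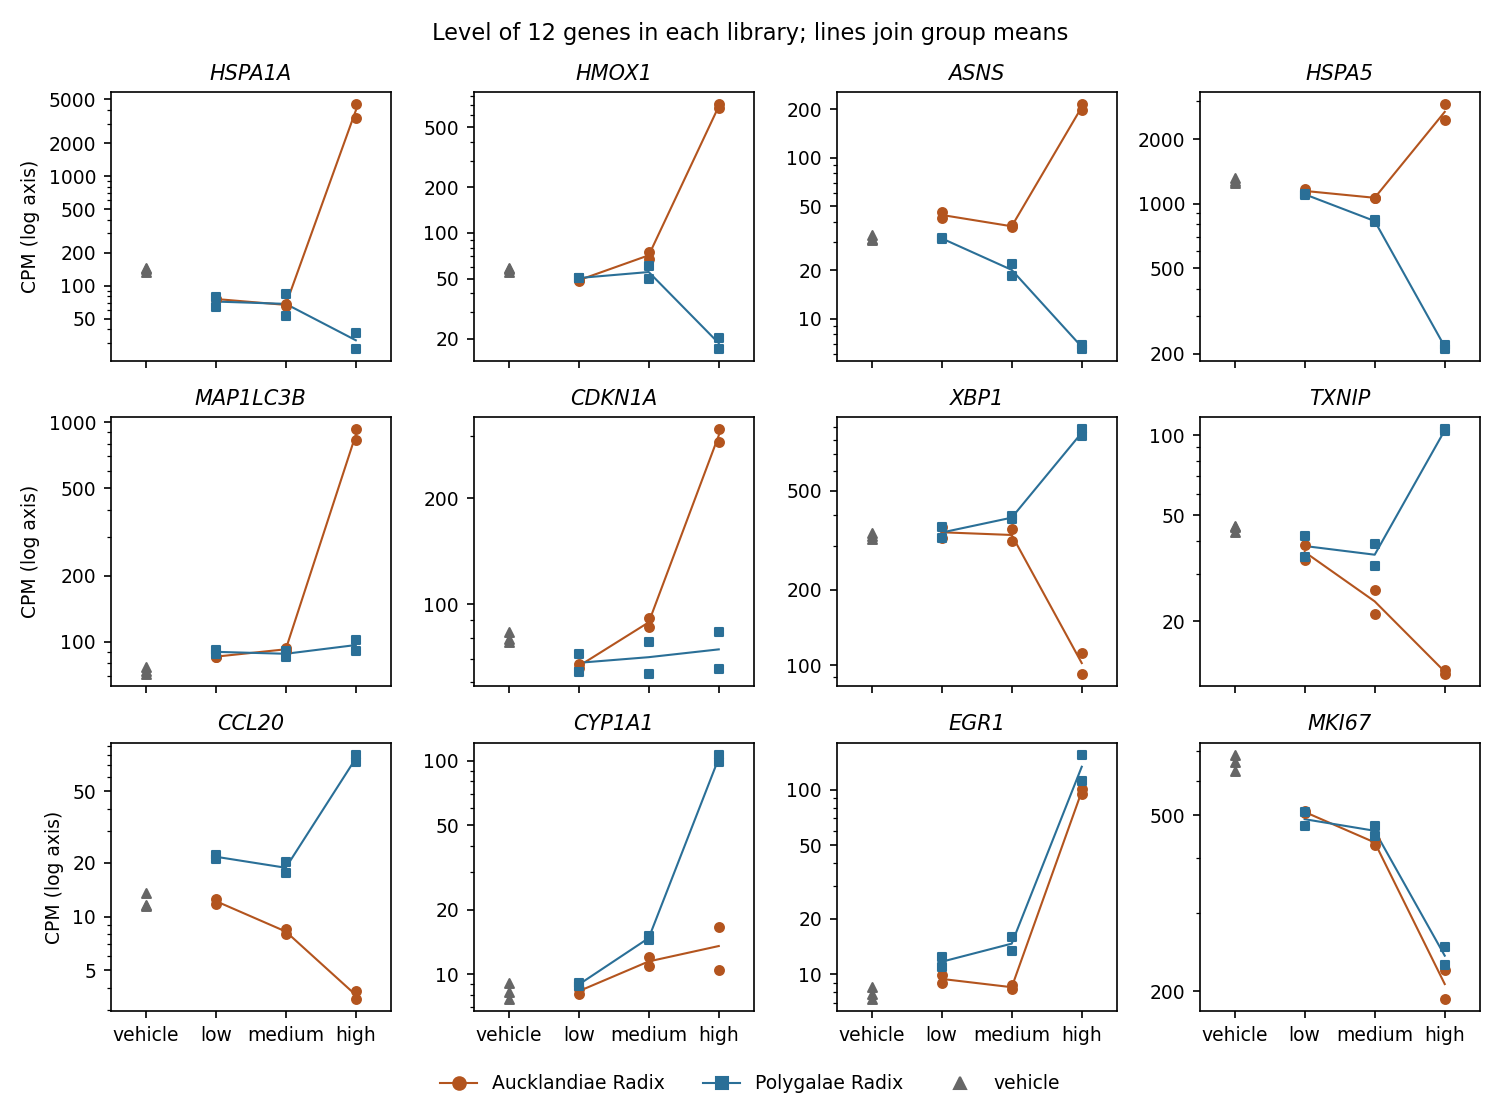
CPM on a log axis for 12 genes in every library of the 2 extracts and the vehicle, by dose; points are libraries, and lines join the means of 2 libraries. HSPA1A, HMOX1, ASNS and HSPA5 were above the vehicle at the high dose of Aucklandiae and below it at the high dose of Polygalae; XBP1, TXNIP and CCL20 had the opposite order, and EGR1 and MKI67 moved the same way in both extracts.

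Autophagy genes, which encode the machinery that encloses cell contents for lysosomal breakdown, were higher with Aucklandiae for most members. Of 18 tested members 15 were higher with Aucklandiae and 0 lower (median log2 0.51), while 8 rose with dose in both extracts, beside 16.7% of all tested genes. MAP1LC3B, whose protein coats autophagosome membranes, measured 928 and 829 CPM with Aucklandiae. With Polygalae it measured 90.9 and 102 CPM, against 76.6, 71.3 and 73.1 CPM in the vehicle, so the extracts were 9.11-fold apart. Its relative GABARAPL1 stood at 123 and 106 against 9.01 and 11.6 CPM. The cargo receptors TAX1BP1 and OPTN rose with Aucklandiae (1.68 and 2.04) and fell with Polygalae (-1.02 and -1.24). ULK1, UVRAG and TFEB, chosen after their values were seen, were the 3 members whose difference between the high doses was not called.

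**Figure D3:**
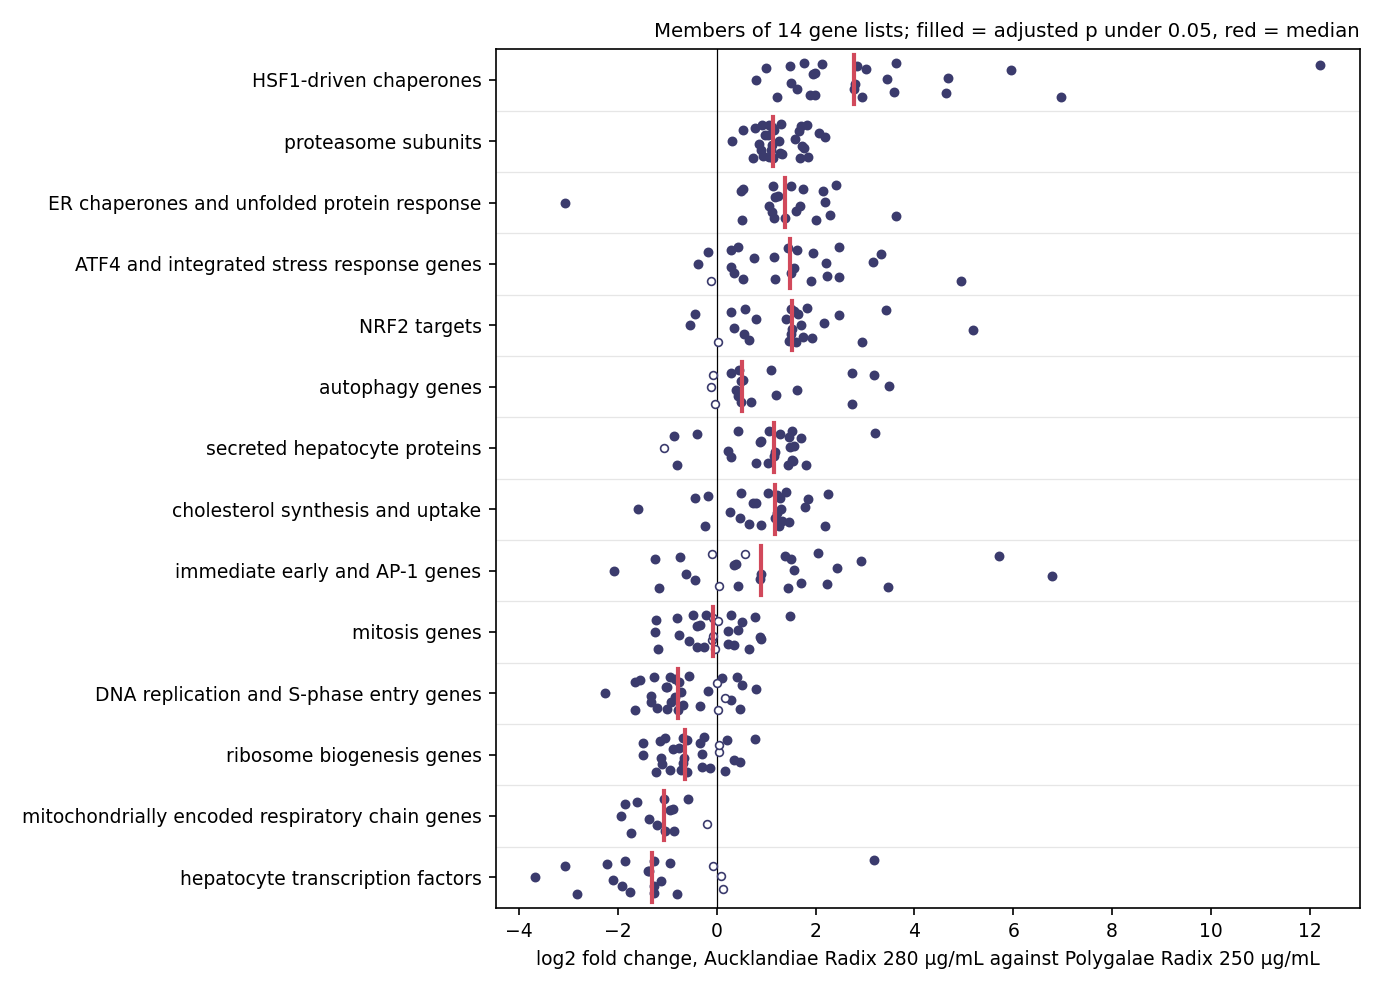
Log2 fold change between the high doses (Aucklandiae minus Polygalae, horizontal axis) for each tested member of 14 gene lists; filled points have an adjusted p under 0.05, open points do not, and red bars mark medians. Chaperone, proteasome and secreted protein lists lie to the right, and mitochondrially encoded genes and hepatocyte transcription factors to the left.

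Immediate early genes rose in both extracts, with the largest share of members rising in both among the 29 lists. Of 26 tested members (27 listed) 23 rose with dose in both extracts and 1 fell in both, beside 16.7% and 18.2% of all tested genes. The median rise was 3.15 with Aucklandiae and 1.68 with Polygalae. EGR1, a zinc finger transcription factor, measured 95 and 101 CPM with Aucklandiae, 155 and 112 CPM with Polygalae and 7.79, 8.55 and 7.36 CPM in the vehicle. Its rises of 3.37 and 3.53 were not called different (-0.15 ± 0.18, 95% interval -0.51 to 0.21, adjusted p = 0.48). The small difference of its level between the high doses (-0.44 ± 0.10) was called, but not without Polygalae replicate 2 (-0.20, adjusted p = 0.111). JUN, the partner of FOS in the AP-1 factor and chosen after its values were seen, was not called different between the high doses (-0.09, 95% interval -0.25 to 0.08, adjusted p = 0.344). Other members rose further with Aucklandiae: FOS measured 45.3 and 28.2 CPM against 4.71 and 4.94 CPM, from means of 0.611 and 0.609 CPM at the low doses. KLF4, a zinc finger factor of differentiation, measured 22.5 and 17.1 against 1.95 and 1.63 CPM. FOSB measured 53.8 and 36.7 CPM against 0.882 and 0.837 CPM, and the synaptic gene ARC 22.6 and 12.9 against 0.221 and 0.0837 CPM, the latter with few counts on the Polygalae side. With Polygalae, the change of ARC with dose did not pass the test (0.23, adjusted p = 0.817). That of FOSB did (0.83, adjusted p = 0.0353), but FOSB measured 0.901, 0.909 and 0.664 CPM in the vehicle. At the high doses 17 members were higher with Aucklandiae and 6 with Polygalae, EGR3 and MYC, chosen after their values were seen, among the latter with log2 differences of -2.08 and -1.26.

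The EGR1 promoter is shown because it holds 2 CArG boxes, the element known to bind serum response factor, in the 250 bases before the start. The window is chr5:138465229-138465478 on the plus strand of GRCh38.p14, and the boxes, in capitals, begin 105 and 83 bases before the start:
EGR1: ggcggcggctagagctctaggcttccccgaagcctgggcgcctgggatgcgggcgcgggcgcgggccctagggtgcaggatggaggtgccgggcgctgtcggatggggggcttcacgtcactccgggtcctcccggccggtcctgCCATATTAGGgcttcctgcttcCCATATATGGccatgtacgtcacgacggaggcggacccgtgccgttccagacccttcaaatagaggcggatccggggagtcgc
A CArG box occurred in 2 of 19 list promoters at hand (10.5%; EGR1 and SRF) and in 1.29% of all promoters.

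EGFR ligands divided between the extracts, although most members of a joint list of these ligands and feedback genes of ERK signalling rose in both. Of 16 tested genes (18 listed) 11 rose with dose in both extracts, and at the high doses 4 were higher with Aucklandiae and 10 with Polygalae. EREG, which encodes the ligand epiregulin, measured 0.252 and 0.167 CPM with Aucklandiae and 6.29 and 6.19 CPM with Polygalae (log2 -4.87 ± 0.36). Amphiregulin, from AREG, measured 5.63 and 6.29 against 47.5 and 44.6 CPM, having risen by 3.00 with Polygalae and by 0.71 with Aucklandiae. HBEGF, another ligand of the same receptor, had the opposite order at 54.1 and 42.8 against 12.5 and 10.4 CPM, and so did the ERK phosphatase DUSP5 at 39.9 and 30.6 against 10.4 and 7.70 CPM. EREG and AREG were thus higher with Polygalae, and HBEGF and DUSP5 with Aucklandiae, with no overlap between the libraries of the 2 extracts, beside 41.8% of all tested genes whose Aucklandiae libraries were both higher and 38.3% whose Polygalae libraries were both higher.

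Mitosis genes fell in both extracts with close medians, whereas most DNA replication genes were lower with Aucklandiae. Of 28 tested mitosis genes 22 fell in both extracts, with medians of -0.81 for Aucklandiae and -0.74 for Polygalae. Between the high doses 11 were higher and 12 lower with Aucklandiae (median -0.07), beside 36.6% and 33.4% of all tested genes. MKI67, the gene of the Ki-67 proliferation marker, measured 192 and 223 CPM with Aucklandiae and 229.6 and 252 CPM with Polygalae, from means of 509 and 490.4 CPM at the low doses and 659 CPM in the vehicle. The libraries of the 2 extracts did not overlap, but the difference was small (-0.21 ± 0.06, adjusted p = 0.00257) and was not called without Aucklandiae replicate 2 (-0.11, adjusted p = 0.183) or Polygalae replicate 3 (-0.15, adjusted p = 0.0822). CENPE, a kinetochore motor, did not pass the test with Aucklandiae (0.07, adjusted p = 0.527) and fell with Polygalae (-1.32). CDK1, the mitotic kinase, fell with Aucklandiae (-0.94) and rose slightly with Polygalae (0.23). Of 31 tested DNA replication genes 22 were lower with Aucklandiae at the high dose and 6 higher (median -0.78). With dose, 29 of these fell with Aucklandiae (median -1.18), while 19 fell and 8 rose with Polygalae (median -0.33). UHRF1, which maintains DNA methylation in S phase, measured 25.8 and 31.1 against 138 and 135 CPM, and the replication licensing factor CDT1 27.7 and 34.5 against 107 and 88.8 CPM.

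The p53 targets were mostly higher with Aucklandiae, and a mixed list of CDK inhibitors, G1 cyclins and arrest genes was divided. CDKN1A, the CDK inhibitor p21 and a p53 target, measured 313 and 289 CPM with Aucklandiae and 83.3 and 65.6 CPM with Polygalae, beside 78.1, 83.3 and 79.6 CPM in the vehicle. Its log2 change with dose was 2.18 ± 0.10 with Aucklandiae and 0.14 ± 0.10 with Polygalae (95% interval -0.07 to 0.34), and the difference between the 2 responses was 2.04 ± 0.14 (adjusted p = 4.23e-17). Of 26 tested p53 targets 21 were higher and 3 lower with Aucklandiae (median 0.54), beside 36.6% and 33.4% of all tested genes. With dose 13 of them rose and 9 fell with Aucklandiae, and 7 rose and 15 fell with Polygalae. The pro-apoptotic genes BBC3 and PMAIP1 rose in both extracts, by 2.05 and 2.77 with Aucklandiae and by 0.67 and 1.15 with Polygalae. GADD45B, a stress gene that binds cell cycle kinases, measured 81.6 and 60.5 against 5.48 and 4.39 CPM, and the CDK4 inhibitor CDKN2D 25.7 and 21.0 against 4.15 and 3.39 CPM. Among 19 tested genes (21 listed) of CDK inhibitors, G1 cyclins and arrest, 11 were higher and 7 lower with Aucklandiae, the latter near the 33.4% of all tested genes. Among 22 genes of the BCL2 family, death receptors and caspases, 12 were higher and 7 lower, and the lower share again is near the 33.4% of all tested genes. In that list BCL2, which protects from apoptosis, measured 1.55 and 0.666 CPM against 4.30 and 3.81 CPM, and its antagonist BMF 7.23 and 8.45 against 23.3 and 23.8 CPM, so both were higher with Polygalae.

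Secreted liver proteins fell in both extracts and fell further with Polygalae, while transcription factors of hepatocyte identity fell with Aucklandiae and mostly rose with Polygalae. Of 25 tested secreted proteins 22 fell in both extracts, with medians of -0.52 and -1.61, and 21 were higher with Aucklandiae at the high doses. Albumin mRNA, from ALB, measured 6478 and 6197 CPM with Aucklandiae and 3276 and 3653 CPM with Polygalae, against 7601, 7108 and 7038 CPM in the vehicle. SERPINA1, the gene of alpha-1-antitrypsin, measured 4152 and 3992 against 1255 and 1229 CPM, and complement C3 1446 and 1389.5 against 413 and 403 CPM. VTN, which encodes vitronectin, was the furthest apart of the list, at 115 and 105 against 12.6 and 11.3 CPM. Both extracts thus lay below the vehicle for SERPINA1 and C3, whose vehicle means were 6776 and 2829 CPM. Of 20 tested transcription factors 16 were lower with Aucklandiae and 1 was higher (median -1.32). With dose 15 fell with Aucklandiae and 13 rose with Polygalae, 12 of them the same genes. ONECUT1 measured 1.55 and 2.37 against 26.8 and 23.3 CPM, and the bile acid receptor gene NR1H4 5.50 and 7.58 against 50.9 and 59.5 CPM. HNF4A, a master regulator of hepatocyte genes chosen after its values were seen, measured 105 and 134 against 426 and 380.5 CPM (log2 -1.76 ± 0.07). The exception was CREB3L3, a membrane-bound factor of the endoplasmic reticulum and a fasting regulator, at 50.7 and 56.5 against 6.36 and 5.44 CPM.

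**Figure D4:**
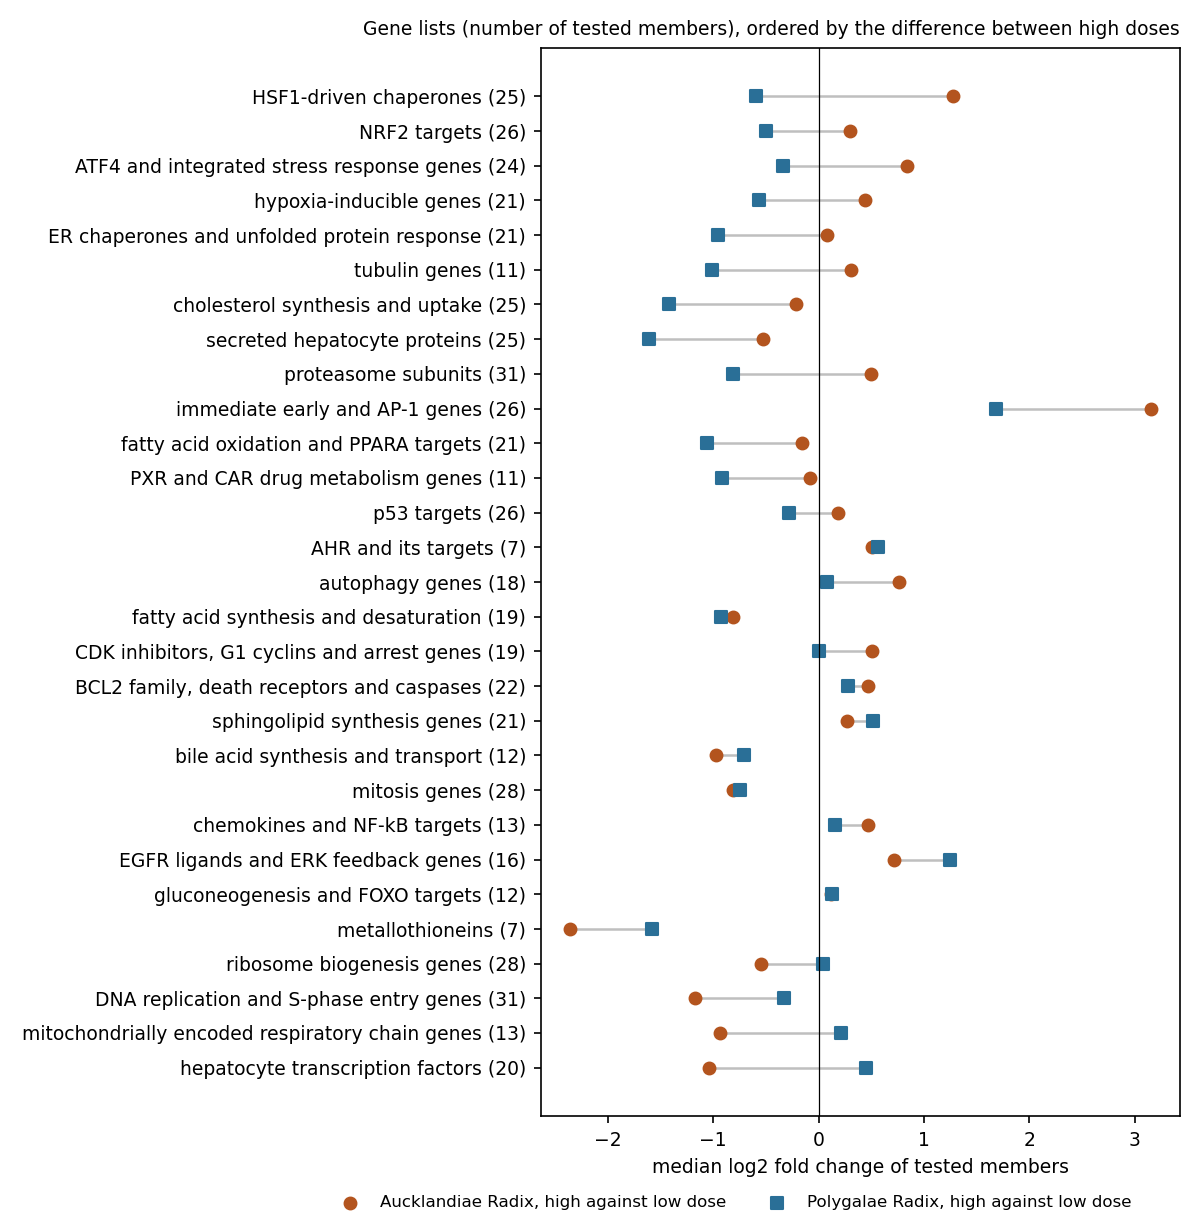
Median log2 fold change from low to high dose of the tested members of 29 gene lists, for Aucklandiae Radix (circles) and Polygalae Radix (squares), ordered by the median difference between the high doses; the number of tested members stands in brackets. Immediate early genes rose and metallothioneins and mitosis genes fell in both, while chaperones, proteasome subunits and hepatocyte transcription factors lie on opposite sides of 0.

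Cholesterol synthesis genes fell with Polygalae and were divided with Aucklandiae. Of 25 tested genes 23 fell with Polygalae (median -1.42), while 7 rose and 13 fell with Aucklandiae (median -0.22). At the high doses 21 were higher with Aucklandiae (median 1.18). HMGCS1, an early enzyme of the pathway, measured 608 and 506 CPM with Aucklandiae and 107 and 137 CPM with Polygalae, and CYP51A1, a later one, 492 and 439 against 117 and 143 CPM. Fatty acid synthesis genes fell in both extracts for 13 of 19 tested members (20 listed), beside 18.2% of all tested genes. Between the high doses 10 were higher and 8 lower with Aucklandiae, beside 36.6% and 33.4%. ACLY, which makes cytosolic acetyl-CoA, measured 347 and 367 against 116 and 119 CPM and ACSS2, which does so from acetate, 87.5 and 88.1 against 24.5 and 24.4 CPM. The triglyceride synthesis gene DGAT2 and MLXIPL, which encodes the glucose-sensing factor ChREBP, had the opposite order, at 14.6 and 14.9 against 68.6 and 65.3 CPM and 33.5 and 37.0 against 176 and 143 CPM. Among 21 tested genes (23 listed) of fatty acid oxidation and PPARA targets 14 were higher and 3 lower with Aucklandiae. HADHA, a subunit of the mitochondrial trifunctional protein, measured 270.3 and 279.7 CPM with Aucklandiae and 55.2 and 56.8 CPM with Polygalae, beside a vehicle mean of 315 CPM.

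Mitochondrially encoded transcripts and ribosome biogenesis genes were lower with Aucklandiae. Of 13 tested respiratory chain genes of the mitochondrial genome 12 were lower with Aucklandiae (median -1.06). With dose 12 fell with Aucklandiae, beside 35.0% of all tested genes. With Polygalae 5 rose, beside 31.9% of all tested genes, and 8 were not called. MT-CO3, a subunit of cytochrome c oxidase, measured 3402 and 3505 CPM with Aucklandiae, 13135 and 13166 CPM with Polygalae and 15216, 13179 and 11950.0 CPM in the vehicle. For this gene the 3 vehicle values lay around those of Polygalae and above those of Aucklandiae. Against vehicle, however, 13 of the 13 genes were lower with Aucklandiae (median -1.43), and with Polygalae 8 were lower and 0 higher (median -0.31). Of all tested genes, 36.8% were lower than in the vehicle with Aucklandiae, and with Polygalae 33.8% were lower and 33.1% higher. Of 28 tested ribosome biogenesis genes 21 were lower and 5 higher with Aucklandiae (median -0.63). RRP1B, a nucleolar protein gene, measured 60.7 and 68.4 against 189 and 175 CPM, and RRS1, needed for the large ribosomal subunit, 23.8 and 28.3 against 74.3 and 71.6 CPM.

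The aryl hydrocarbon receptor target CYP1A1, an oxidase of aromatic compounds, was higher with Polygalae. It measured 10.5 and 16.6 CPM with Aucklandiae, 107 and 98.9 CPM with Polygalae and 9.05, 7.64 and 8.26 CPM in the vehicle. It rose in both extracts, by 0.71 and 3.53, and the responses differed by -2.83 ± 0.18 (adjusted p = 3.54e-18). The receptor's own gene AHR measured 63.7 and 57.5 against 93.8 and 100.1 CPM, and 4 of 7 tested genes of this list (10 listed) were higher and 2 lower with Aucklandiae. Metallothioneins, which bind zinc and copper, fell with dose in both extracts for all 7 tested genes of 8 listed (medians -2.36 and -1.58). MT1G measured 7.27 and 7.49 against 19.4 and 17.0 CPM, from 63.5 and 60.0 CPM at the low doses, while MT2A measured 174 and 148 against 65.4 and 68.0 CPM and so had the opposite order. Reads of these closely related genes may be shared among them in the counting.

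Several genes far apart between the extracts belonged to none of the lists. Among the 12 lowest with Aucklandiae, SLC6A14, an amino acid transporter gene, measured 1.43 and 1.17 CPM against 45.0 and 58.0 CPM with Polygalae and 36.9, 28.7 and 32.7 CPM in the vehicle. Its log2 change with dose was -4.90 with Aucklandiae and 0.37 with Polygalae. The sodium channel gene SCN1A measured 1.01 and 1.33 against 15.3 and 20.5 CPM and fell in both extracts, and UBD, a ubiquitin-like modifier gene, 1.22 and 0.708 against 13.2 and 15.2 CPM. ANGPTL8, a regulator of lipoprotein lipase, measured 0.252 and 0.708 against 10.3 and 10.5 CPM. TCIM and MSI1 fell with Aucklandiae and rose with Polygalae, to 4.08 and 4.87 against 74.1 and 76.2 CPM and 0.252 and 0.125 against 6.03 and 4.73 CPM. ANGPTL1, PLPPR1 and TRIM50 completed the set together with the antisense gene AC011603.2, with log2 differences from -3.70 to -5.56. AC011603.2, whose reads cannot be told from those of its partner on the other strand without a stranded count, varied between replicates, at 19.2 and 6.57 CPM with Polygalae, had a mean of 116 CPM in the vehicle, and its difference of dose responses was not called without Polygalae replicate 2 (adjusted p = 0.0642). Among the 12 highest with Aucklandiae outside the lists, the importin gene KPNA7, the microtubule gene MAP1A, RGMA, ADPRHL1 and THSD4 had log2 differences from 4.98 to 6.94, all from Polygalae levels of at most 0.551 CPM.

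Genes that moved in opposite directions with dose included TXNIP, which binds thioredoxin and restrains glucose uptake. It measured 12.7 and 13.2 CPM with Aucklandiae and 105 and 103 CPM with Polygalae, on either side of 45.3, 45.4 and 43.3 CPM in the vehicle. CCL20, a chemokine gene, measured 3.82 and 3.46 CPM with Aucklandiae and 72.8 and 80.2 CPM with Polygalae. It was also called at the low doses (-0.82 ± 0.17, adjusted p = 0.00299), whereas TXNIP did not pass the test there (-0.09 ± 0.09, adjusted p = 0.872). P4HA2, a collagen prolyl hydroxylase, and MVP, the major vault protein, went the other way, at 115 and 108 against 9.52 and 11.1 CPM and 114 and 113 against 9.92 and 8.49 CPM. DNAH17, TNS1 and GBP2 did likewise, with log2 changes of 2.97, 1.67 and 1.94 with Aucklandiae and -1.64, -1.54 and -1.52 with Polygalae.

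The largest changes that the extracts shared in direction differed in part between the high doses. METRNL, which encodes a secreted hormone-like protein, rose from 0.501 to 14.7 and 13.0 CPM with Aucklandiae and from 0.690 to 12.1 and 8.79 CPM with Polygalae, a difference between high doses of 0.41 ± 0.22 (95% interval -0.04 to 0.85, adjusted p = 0.0959) that was called without Polygalae replicate 2 (0.65, adjusted p = 0.041). AQP3, an aquaglyceroporin gene, and RASD1, a Ras-related gene, rose by 3.47 and 3.38 with Aucklandiae and by 3.56 and 3.67 with Polygalae. Their levels differed slightly between the high doses (-0.36 and -0.37), but neither was called without Polygalae replicate 2 (adjusted p = 0.701 and 0.822). ALDH6A1, an enzyme of valine breakdown, fell to 9.08 and 10.5 CPM with Aucklandiae and 8.01 and 9.04 CPM with Polygalae, from 53.1 CPM in the vehicle (difference 0.20 ± 0.10, 95% interval 0.00 to 0.40). CYGB, the gene of cytoglobin, had log2 changes of -2.47 with Aucklandiae and -2.41 with Polygalae, and its levels at the high doses were not called different (-0.24, adjusted p = 0.219). The liver enzyme gene AGXT had log2 changes of -3.14 and -2.41, and its responses differed by -0.74 ± 0.20 (adjusted p = 0.00168; -0.50 between the high doses, adjusted p = 0.0139). Without Polygalae replicate 2 neither was called (adjusted p = 0.0516 and 0.224), and without Aucklandiae replicate 2 the latter was not (adjusted p = 0.112). KLF2, a zinc finger factor that rose by 4.88 with Aucklandiae and 3.24 with Polygalae, was higher with Aucklandiae (2.23 ± 0.33, adjusted p = 7.70e-08). The difference of its dose responses was not called (1.64, 95% interval -0.01 to 3.28, adjusted p = 0.0809). It was called with GC and length trends removed (2.10, adjusted p = 0.0213). The low-dose means of KLF2 were only 0.179 CPM with Aucklandiae and 0.113 CPM with Polygalae. ACSM2A and ACSM2B, near-identical acyl-CoA synthetase genes that fell in both, were lower with Aucklandiae by log2 differences of -1.34 (adjusted p = 0.000612) and -0.90 (adjusted p = 0.000335). The first was not called without Aucklandiae replicate 2 (adjusted p = 0.179), nor the second without Polygalae replicate 3 (adjusted p = 0.0664). CA9, a carbonic anhydrase gene that fell in both, was not called different between the high doses (1.78, adjusted p = 0.1). The gene was called with DESeq2 (1.83, adjusted p = 0.017), with no low-count filter (1.75, adjusted p = 1.8e-05) and with only the groups compared (1.73, adjusted p = 0.000925). It was also called with the libraries of set 11 alone (1.76, adjusted p = 0.0413) and with the replicate block (1.75, adjusted p = 0.00287). It averaged 1.17 CPM in vehicle cells, 6.00 CPM with low-dose Aucklandiae and 3.99 CPM with low-dose Polygalae, and 1.05 and 1.12 against 0.331 and 0.293 CPM at the high doses.

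Low-dose calls were few and varied with the libraries used, so they say little about which differences were already present. Of the 6218 genes higher with Aucklandiae at the high doses 38 were called higher at the low doses, where 59 of all tested genes were (0.348%). Of the 5672 lower genes 55 were called lower at the low doses, where 121 of all tested genes were (0.713%). The difference of dose responses was called in the same direction for 5171 of the 6218 and 4775 of the 5672. Against vehicle, 73.3% of the tested genes were called at the high dose of Aucklandiae (6201 or 36.5% higher, 6243 or 36.8% lower). At the high dose of Polygalae 66.9% were called (5614 or 33.1% higher, 5740 or 33.8% lower). The 2 comparisons share the vehicle libraries, so no overlap between them is given. Against vehicle, all 25 chaperones were higher with Aucklandiae, and 20 of 25 were lower with Polygalae. For the 31 proteasome subunits 27 were higher with Aucklandiae and 27 lower with Polygalae.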

How the data were processed

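RNA of HepG2 cells was sequenced as 100-base pairs from directional libraries, per the labels' protocols. The authors deposited 1 table of RSEM expected counts for 60675 gene IDs and 60 libraries. Per the submitters' processing notes, FastQC 0.11.9, Trim Galore 0.6.5, STAR 2.7.3a and RSEM 1.3.3 were used with GRCh38. The sources used here give neither the annotation release nor the strand setting. RSEM divides reads shared by similar genes by estimate, so values of near-identical copies are uncertain.

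Expected counts were rounded (9.97% were not whole) and tested with edgeR 4.0.16 (quasi-likelihood, TMM scaling, filterByExpr with a minimum count of 10) in R 4.3.3. The fit held 57 libraries of 22 groups, with 35 residual degrees of freedom and 16978 genes. Okbyeongpung-san, with 1 library a dose, was left out. P-values were adjusted by Benjamini-Hochberg over all tested genes of a contrast and called under 0.05. Standard errors are the absolute log2 fold change over the root of the F statistic. Fitted libraries held 17518511 to 38905956 counts. The test was also run on simulated data. The outcome is not given here, so no conclusion on scaling or error rates in these libraries is drawn from it.

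Members, gene lists and tests were chosen with earlier results of these data known. The text names, among genes of at least 5 CPM, the 12 furthest apart in each direction between the high doses, the 6 largest shared and the 6 largest opposite changes of each kind, up to 4 genes of each list and 10 genes fixed by name. Alternatives used DESeq2 1.42.0, other scalings and filters, fewer libraries, a replicate block, a correction for GC content and length (mgcv 1.9.3) and each library left out.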

Additional observations from a re-analysis of the deposited data

Results flagged for a closer look

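Results are named here because the response to dose differed between the extracts by the test of that difference. In all, 2522 genes were called in opposite directions from low to high dose, with no library shared between the 2 contrasts. Of the 12 largest opposite changes, the 6 that rose with Aucklandiae and fell with Polygalae had log2 differences between the 2 dose responses of 4.46 for ASNS, 3.51 for P4HA2, 4.62 for DNAH17, 3.79 for MVP, 3.21 for TNS1 and 3.46 for GBP2. The 6 that fell with Aucklandiae and rose with Polygalae had -5.22 for MSI1, -3.57 for CCL20, -3.95 for TCIM, -2.92 for TXNIP, -3.09 for ITPRIPL1 and -3.07 for XBP1.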

How the results depend on the processing

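Under 10 other analyses and with each library left out, the counts of genes differing between the high doses, whose dose responses differed and that moved together or apart with dose stayed within 1.5 times the values given. Counts against vehicle did so under the 8 analyses that hold the vehicle libraries and with each of their libraries left out. Of the 11890 genes called between the high doses, 85.1% to 99.5% were called again in the same direction, and 3 were called in the opposite direction with GC and length trends removed and 0 under the others. The share of calls higher with Aucklandiae was 49.4% to 54.1%. Low-dose counts were less stable: 354 genes with no filter, 27 with the 12 libraries of set 11 alone, 336 with GC and length trends removed, and 62 to 150 with 1 library left out. Medium-dose counts were 860 with only the groups compared, 1518 with set 11 alone and 1989 to 4319 with 1 library left out. Where a group keeps a single library, that library is assumed to vary as the other groups do. Replicate numbers did not pair the libraries of the 2 high doses, whose replicate differences had a correlation of -0.00416 across genes. Of the 15 pairs of groups, the high and medium doses of Polygalae had the highest correlation, 0.246, so their replicates shared some variation. The other pairs ranged from -0.0440 to 0.0465. With the replicate number as a block, also fitted on the 12 libraries of set 11 alone, 28 genes were called at the low and 1753 at the medium doses, against 27 and 1518 for those libraries with no block. The difference of dose responses, not called to begin with, changed sign for RASD1 (0.058) and CYGB (0.041) with GC and length trends removed. With 1 library left out it ranged from -0.56 to 0.047 for RASD1, -0.35 to 0.18 for CYGB, -0.31 to 0.19 for AQP3 and -0.37 to 0.099 for EGR1; it was above 0 without Polygalae high replicate 2 for all 4 (0.047, 0.071, 0.19 and 0.099), without Aucklandiae high replicate 2 for CYGB (0.18), and without low replicate 3 of Aucklandiae (0.09) or Polygalae (0.11) for AQP3. Without Polygalae low replicate 3, the difference of dose responses was not called for HSPA6 (adjusted p = 1) or ARC (adjusted p = 0.0555). The medians of bile acid genes (-0.226 to 0.152) and mitosis genes (-0.15 to 0.0222) crossed 0 between analyses. The causes were not tested. Few counts limit genes such as HSPA6, ARC and CCL26 on the Polygalae side.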

Other observations

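Hypoxia-inducible genes were mostly higher with Aucklandiae. Of 21 tested members 16 were higher and 2 lower at the high doses (median log2 1.47), beside 36.6% and 33.4% of all tested genes. ADM, the gene of the vessel-widening peptide adrenomedullin, measured 141 and 104 CPM with Aucklandiae and 11.7 and 9.83 CPM with Polygalae, and it rose with dose in both, by 4.54 and 0.85. PFKFB3, an activator of glycolysis, did likewise, at 40.7 and 34.5 against 8.71 and 8.37 CPM. NDRG1 measured 94.5 and 97.3 against 13.3 and 13.1 CPM, with log2 changes of 1.14 with Aucklandiae and -1.73 with Polygalae, while the glycolytic enzyme gene ALDOC fell in both (-0.68 and -2.91). The list thus held genes that rose in both extracts (6), fell in both (6) and moved apart, where 16.7% of all tested genes rose and 18.2% fell in both. Tubulin genes fell with Polygalae for 10 of 11 tested members, while 6 rose and 4 fell with Aucklandiae. TUBB2A, which shares reads with its near copy TUBB2B, measured 214 and 184 against 26.3 and 21.3 CPM, and TUBB6 84.6 and 83.9 against 19.9 and 17.3 CPM.

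Sphingolipid synthesis genes split 9 higher to 8 lower with Aucklandiae among 21 tested members, near the 36.6% and 33.4% of all tested genes. The counts of the lists that follow are to be read against the same shares. SPTLC3, a subunit of the enzyme that starts the pathway, measured 1.47 and 1.87 CPM with Aucklandiae and 18.2 and 21.3 CPM with Polygalae, with falls in both (-5.18 and -1.59). The sphingomyelin synthase gene SGMS2 rose in both and measured 39.5 and 32.2 against 11.0 and 13.0 CPM. Genes of bile acid handling split 5 to 4 among 12 tested: NR0B2, the nuclear receptor SHP that restrains bile acid synthesis, measured 6.43 and 8.04 against 57.3 and 44.4 CPM, and the exporter subunit gene SLC51B 13.9 and 15.7 against 4.74 and 4.81 CPM. Among 12 genes of gluconeogenesis and FOXO targets 5 were higher and 5 lower with Aucklandiae. PPARGC1A, a coactivator of mitochondrial and fasting genes, measured 4.92 and 5.20 against 20.5 and 23.6 CPM, and the insulin receptor substrate gene IRS2 3.74 and 4.04 against 0.404 and 0.377 CPM. Of 11 tested PXR and CAR targets 6 were higher and 3 lower, with the drug efflux pump gene ABCB1 at 121 and 116 against 42.9 and 45.2 CPM. Among 13 chemokines and NF-kB targets 6 were higher and 6 lower, and IL32, a cytokine gene, measured 162 and 149 against 49.4 and 47.6 CPM. CCL26, a chemokine gene, had 167 and 146 counts with Aucklandiae and 1 and 0 with Polygalae, a ratio of 334.5 with an exact 95% interval of 59.6 to 13254 that covers counting error only.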
